A study of Mus musculus with 10 samples.

Results

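The cyclins, kinases and inhibitors that set the pace of the G1 phase of the cell cycle were followed in sorted mouse mammary cells. They are 10 of the 26312 genes in the table: the D cyclins Ccnd1, Ccnd2 and Ccnd3, the kinases Cdk4 and Cdk6, the inhibitors Cdkn1b, Cdkn1c and Cdkn2c, the retinoblastoma gene Rb1 and the transcription factor gene Myc. They were taken by name, for their roles. All 10 were in the table, and 9 averaged 10 or more normalized counts per library, the minimum for testing. Ccnd2, with a mean of 6.1, was not tested.

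Cells came from mammary glands of C57BL/6J mice, 12 weeks of age, that were either RSK2(+/+), called WT here, or RSK2(-/-), called KO here. RSK2 is a kinase that ERK1/2 activates, and its gene is Rps6ka3. Glands were collected at estrus or diestrus, and cells were sorted as EpCAM-high, CD49f-low, Sca-1-positive and CD49b-negative, the gate of hormone-sensing luminal cells. The groups were WT at estrus (3 libraries), KO at estrus (3), WT at diestrus (2) and KO at diestrus (2). WT also stands in the long titles of KO libraries, and genotype therefore follows the genotype field. The labels leave unstated whether a library is 1 mouse or a pool, and the spread that the p-values rest on may be technical.

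In G1, D cyclins bind CDK4 or CDK6, and the active complex phosphorylates the RB1 protein, which then releases E2F factors that switch on the genes of DNA synthesis. CDKN2C (p18) binds the kinases and keeps cyclins off them, whereas CDKN1B (p27) and CDKN1C (p57) bind whole cyclin and kinase complexes. MYC is a transcription factor that promotes growth and entry into the cycle. In the mammary gland, estrogen is known to raise Ccnd1 and Myc transcripts, and cyclin D1 is needed for the alveolar growth of pregnancy. Much of the control of these proteins, p27 in particular, lies in phosphorylation and breakdown, which RNA does not show.

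The promoter of Cdk4 is shown because it links 2 of the 10 genes through sequence: it is dense in CACGTG, the E-box word that MYC with its partner MAX is known to bind. Promoter windows, from 250 bases before to 50 after a transcript start in RefSeq (GRCm38.p6), were at hand for 5 of the 10 genes, in 7 windows. They belonged to Ccnd3, Cdk4, Cdk6, Cdkn1b and Cdkn2c. The 250 bases before the Cdk4 start are printed 5′ to 3′ on the + strand (chr10:127063285-127063534), with each E-box in capitals.
Cdk4: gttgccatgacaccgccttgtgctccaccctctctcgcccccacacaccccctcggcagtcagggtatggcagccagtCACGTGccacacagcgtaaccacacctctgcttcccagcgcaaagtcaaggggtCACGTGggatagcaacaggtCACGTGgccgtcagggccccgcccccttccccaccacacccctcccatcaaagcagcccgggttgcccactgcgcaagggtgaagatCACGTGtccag
The 4 copies begin 172, 118, 98 and 11 bases before the start. The Cdk6 window held 1 copy, 220 bases before its start, and 1 of the windows of Cdkn2c held a copy 34 bases after its start. Over all 32851 RefSeq windows, 7.15% held CACGTG, which reads the same on both strands, and 8 windows (0.0244%) held 4 or more copies. Of the other words searched on both strands, TTTCGCGC, TTTGGCGC and TTTCCCGC (E2F words, in 0.323%, 0.514% and 1.07% of all windows), TGACGTCA (the cyclic AMP response element, 1.79%) and the palindromic estrogen response element (0.07%) were in 0 of the 7 windows.

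The libraries held between 14108057 and 15307238 normalized counts each. Rps6ka3 ran from 128 to 165 in the libraries labelled WT and from 156 to 165 in those labelled KO. It was not lower in KO, but a count over the whole gene does not show whether a deleted part was present, so it does not check the labels. The hormone-sensing markers Esr1 (1468 to 3334) and Pgr (748 to 1688) were present in all 10 libraries. On the first principal component (29.3% of the variance), the KO estrus libraries lay between 37.4 and 55.8 and the other 7 between -33.1 and -5.50. In the KO estrus libraries, values also fell with transcript length, with slopes of -0.116, -0.0316 and -0.0765 on the log2 scale per doubling. The KO diestrus libraries had slopes of 0.0577 and 0.0558. In WT the slopes were -0.025, 0.0348 and 0.0285 at estrus and 0.0331 and 0.0391 at diestrus, so WT estrus replicate 1 also fell with length.

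Levels of different genes were set side by side as normalized counts per kb of exon. Averaged over the 10 libraries, Myc (852 per kb) and Cdk4 (834 per kb) were highest, followed by Ccnd3 (181 per kb), Ccnd1 (146 per kb) and Rb1 (77.2 per kb). The inhibitors of the list came next, with Cdkn1b at 21.2, Cdkn1c at 19.7 and Cdkn2c at 14.0 per kb. Cdk6 (2.25 per kb) and Ccnd2 (0.648 per kb) were lowest. Myc and Cdk4 change places with the length and the group: by longest transcript Cdk4 was first (1321 against 991 per kb), and by exon union Cdk4 was above Myc in all KO estrus libraries. By exon union, neighbours in this order overlapped in their ranges over libraries, except that Cdk4 was above Ccnd3, Rb1 above Cdkn1b and Cdkn2c above Cdk6 in every library. By longest transcript, Ccnd3 (318 to 499 per kb) was also above Ccnd1 (94.1 to 307 per kb) in every library. The cells thus held transcripts of Cdk4 far above those of Cdk6, and of Ccnd1 and Ccnd3 far above those of Ccnd2. The order does not cover CDK inhibitors outside the list. In normalized counts not divided by length, Cdkn1a was at 1947 to 4904 over the 10 libraries and Cdkn2d at 169 to 439. Cdkn2b was at 58 to 184 and Cdkn2a at 0 to 2, where Cdkn1b was at 32 to 176.

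**Figure D1:**
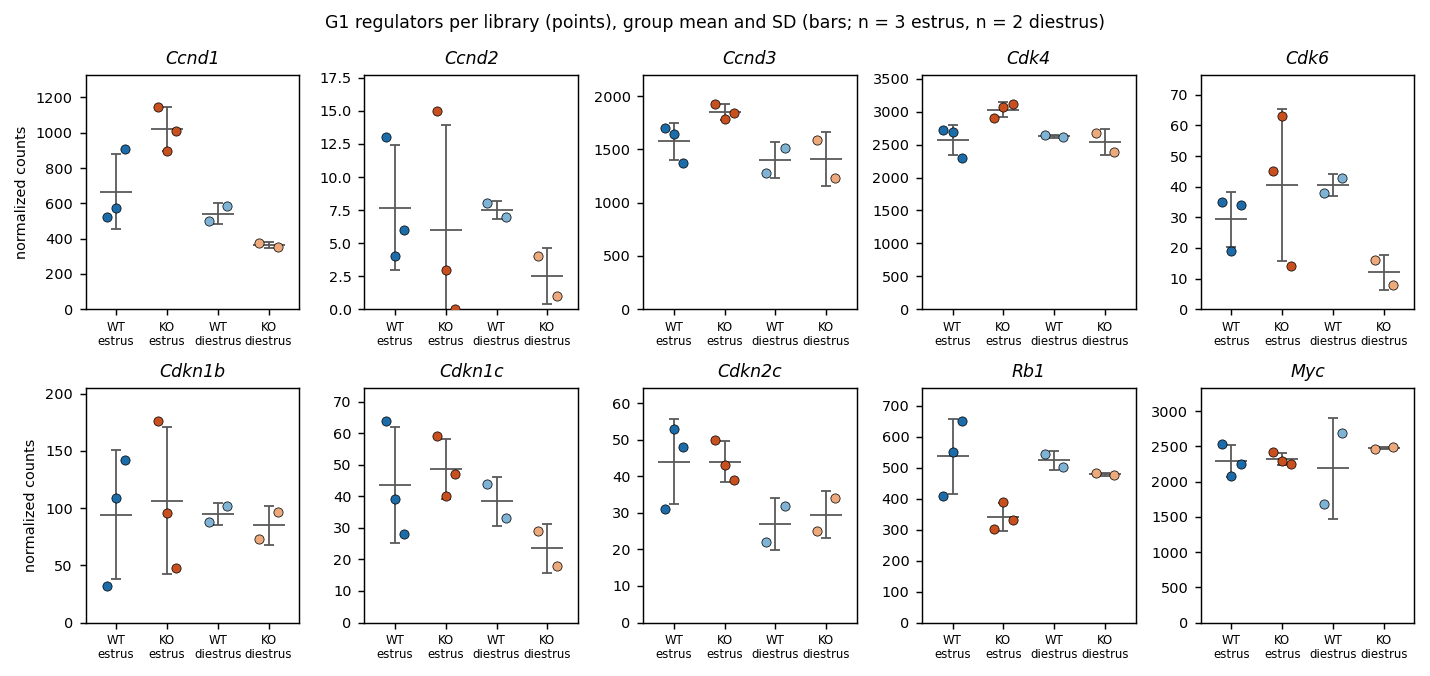
Normalized counts of the 10 G1 regulators in each library (points), with group means and SDs (bars), for WT and KO at estrus (3 libraries each) and diestrus (2 each), each gene on its own axis from 0, where the SD bar of Ccnd2 in KO at estrus is cut off. Ccnd1 runs from 898 to 1147 at estrus and from 352 to 374 at diestrus in KO; Rb1 in KO at estrus (303 to 391) lies below every other library.

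Among the D cyclins, which activate CDK4 and CDK6, Ccnd1 changed with the stage in KO. Ccnd1 (chr7:144929931-144939925, − strand, GRCm38) was read at 1147, 898 and 1010 normalized counts in the KO estrus libraries. It was read at 374 and 352 in KO at diestrus, so the 2 stages were far apart, with 1018 ± 125 (SD, n = 3) against 363 ± 15.6 (SD, n = 2). By limma, on the scale log2(value + 1) and with p-values adjusted over all 15180 tested genes, Ccnd1 was higher at estrus in KO by 1.48 ± 0.22 (SE; 95% interval 0.998 to 1.96; adjusted p = 0.0047). This is a fold of 2.79, and 2.57% of the tested genes differed by more in that comparison. Without KO diestrus replicate 2, the difference of Ccnd1 was 1.44 with an adjusted p of 0.0777, and without KO estrus replicates 1 and 3 together it was 1.30 with an adjusted p of 0.0720.

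In WT, Ccnd1 was read at 520, 572 and 908 at estrus and at 500 and 583 at diestrus, and the stages overlapped. The stage difference in WT was 0.26 ± 0.22 (SE) on the log2 scale, with an adjusted p of 1 by limma and a 95% interval of -0.22 to 0.74. The difference between the stage differences of Ccnd1, which is the interaction, was 1.22 ± 0.31 with an unadjusted p of 0.00212 and an adjusted p of 0.237 by limma. A different stage response of Ccnd1 in KO and WT was therefore not shown by the adjusted test.

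At estrus, 2 of the 3 KO libraries (1147 and 1010) had more Ccnd1 than the highest WT library (908), and the third (898) fell just under it. The KO to WT difference of Ccnd1 was 0.65 ± 0.20 at estrus (adjusted p = 0.0717, limma), and 0.89 with an adjusted p of 0.045 without WT estrus replicate 3, the library at 908. At diestrus both KO libraries (374 and 352) lay under both WT libraries (500 and 583), by -0.57 ± 0.24 on the log2 scale (adjusted p = 0.789, limma). These opposite signs gave a difference averaged over the stages of 0.04 ± 0.16 for Ccnd1.

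Ccnd1 shares 1100 bases of exon, 23.4% of its exon length, with LTO1 on the opposite strand, and the sources used here do not say whether counting used strand. LTO1 was read at 725, 570 and 651 in KO at estrus and at 432 and 437 in KO at diestrus. Its stage difference in KO was 0.57 ± 0.19 (adjusted p = 0.0642, limma), against the 1.48 of Ccnd1. With the trend on transcript length and GC content removed from each library, the stage difference of Ccnd1 in KO was 1.56 (adjusted p = 0.00698, limma).

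Ccnd3, the other D cyclin of these cells, varied much less. It was read at 1702, 1647 and 1375 in WT and at 1927, 1784 and 1837 in KO at estrus, so every KO library was above every WT library. At diestrus it was read at 1279 and 1516 in WT and at 1587 and 1227 in KO, with overlap. The KO to WT difference of Ccnd3 at estrus was 0.24 ± 0.14 (adjusted p = 0.324, limma). Its stage difference in KO was 0.41 ± 0.16 (adjusted p = 0.100, limma), and 361 bases of its exons are shared with Bysl on the opposite strand. Ccnd2 was listed at 13, 4 and 6 (WT estrus), 15, 3 and 0 (KO estrus), 8 and 7 (WT diestrus) and 4 and 1 (KO diestrus). At such counts, differences between groups of Ccnd2 were not detectable.

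Within a library, the scaling cancels when each D cyclin is given as a share of the summed D cyclin level per kb. Ccnd1 made up 43.5 ± 10.2% (SD, n = 3) of this sum in WT at estrus and 50.5 ± 2.03% (SD, n = 3) in KO at estrus. It made up 41.8 ± 0.256% (SD, n = 2) in WT and 32.6 ± 3.08% (SD, n = 2) in KO at diestrus. Ccnd3 made up nearly all the rest, and Ccnd2 at most 0.452% in any library. In KO, per kb of exon union, Ccnd1 (216) and Ccnd3 (211) overlapped at estrus, and at diestrus Ccnd1 (77.1) was below Ccnd3 (160) in both libraries. The overlap at estrus depends on the length used. Per kb of longest transcript, Ccnd1 was below Ccnd3 in every KO library. The means were then 272 against 479 at estrus and 97.1 against 365 at diestrus. The shares depend on the length used for each gene, and are 36.1% and 21.2% for Ccnd1 in KO at estrus and diestrus when the longest transcript is used. Ccnd1 was lower at diestrus in KO by either length.

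**Figure D2:**
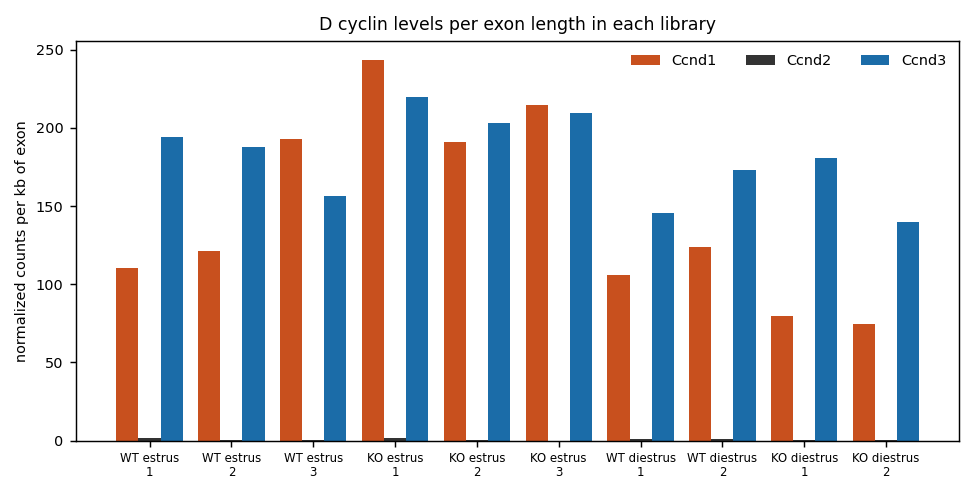
Levels of the D cyclins in each library, in normalized counts per kb of exon, as bars from 0 grouped by library. In the KO estrus libraries the bars of Ccnd1 (191 to 244 per kb) stand near the height of Ccnd3, and in the KO diestrus libraries they fall to 79.4 and 74.8 per kb. Lengths are exon unions, and by longest transcript Ccnd1 was below Ccnd3 in every library.

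Of the catalytic partners of the D cyclins, Cdk4 was steady and Cdk6 was near the lower end of what could be tested. Cdk4 (chr10:127063534-127067920, + strand) was read at 2718, 2686 and 2300 in WT and at 2904, 3075 and 3110 in KO at estrus. All 3 KO values lay above all 3 WT values, by 0.24 ± 0.12 on the log2 scale (95% interval -0.02 to 0.51; adjusted p = 0.236, limma). At diestrus Cdk4 was read at 2640 and 2608 in WT and at 2674 and 2395 in KO, and the genotypes overlapped. The difference of Cdk4 between KO and WT at estrus was 0.10 with the length and GC trend removed, against 0.24 without that correction. Cdk4 shares 641 bases of exon with Tspan31 on the opposite strand.

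Cdk6 was read at 35, 19 and 34 (WT estrus), 45, 63 and 14 (KO estrus), 38 and 43 (WT diestrus) and 16 and 8 (KO diestrus). Both KO diestrus values were below both WT diestrus values, and the KO estrus values spanned almost the whole range. The KO to WT difference of Cdk6 at diestrus was -1.74 ± 0.62 (adjusted p = 0.657, limma). In KO its stage difference was 1.51 ± 0.57 (adjusted p = 0.085, limma), and 2.13 with an adjusted p of 0.0129 without KO estrus replicate 3, the library at 14.

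No inhibitor passed the threshold in any comparison. Cdkn1b, which encodes p27, was the most uneven within groups, at 32, 109 and 142 in WT and 176, 96 and 48 in KO at estrus. At diestrus Cdkn1b was read at 88 and 102 in WT and at 73 and 97 in KO. Its difference between KO and WT at estrus was 0.23 ± 0.53 with a 95% interval of -0.92 to 1.38. At estrus the lowest and the second highest value of Cdkn1b were both in WT, and the genotypes overlapped.

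Cdkn1c, which encodes p57, was read at 59, 40 and 47 in KO at estrus and at 29 and 18 in KO at diestrus. The stages did not overlap in KO, and the difference of Cdkn1c was 1.04 ± 0.39 (adjusted p = 0.0844, limma). In WT it was read at 64, 39 and 28 at estrus and at 44 and 33 at diestrus, with overlap. Cdkn1c shares 625 bases of exon, 30.7% of its exon length, with the predicted gene Gm44732 on the opposite strand. Gm44732 itself was called higher at estrus in KO, by 1.65 ± 0.48 (adjusted p = 0.0377, limma), at 31, 28 and 23 against 9 and 7.

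Cdkn2c, which encodes p18, had the higher mean at estrus in both genotypes, and neither stage difference passed the test. It was read at 31, 53 and 48 in WT and at 50, 43 and 39 in KO at estrus. At diestrus Cdkn2c was read at 22 and 32 in WT and at 25 and 34 in KO. Its stage difference was 0.67 ± 0.34 in WT (adjusted p = 1, limma) and 0.57 ± 0.34 in KO (adjusted p = 0.262, limma). The interaction of Cdkn2c was -0.10 ± 0.48 with a 95% interval of -1.15 to 0.95.

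Rb1, whose protein the D cyclin kinases inactivate, was lowest in the KO estrus libraries. Rb1 (chr14:73183673-73325822, − strand) was read at 303, 391 and 330 there, and at 410, 550 and 652 in WT at estrus. At diestrus it was read at 546 and 502 in WT and at 482 and 476 in KO. The 3 KO estrus values were thus the lowest of the 10, and the WT estrus libraries spread most. The KO to WT difference of Rb1 at estrus was -0.64 ± 0.18 (95% interval -1.02 to -0.25; adjusted p = 0.0604, limma), and -0.82 with an adjusted p of 0.0325 without WT estrus replicate 1. In KO, Rb1 differed between estrus and diestrus by -0.50 ± 0.20 (adjusted p = 0.104, limma). With the length and GC trend removed, the 2 differences of Rb1 were -0.37 (adjusted p = 0.159, limma) and -0.15 (adjusted p = 0.563, limma). Rb1 shares exon with Rcbtb2 (488 bases) and Lpar6 (408 bases) on the opposite strand.

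Myc, with Cdk4 one of the pair of highest level per kb, passed the test in no comparison. It was read at 2533, 2083 and 2255 in WT and at 2422, 2293 and 2246 in KO at estrus. At diestrus Myc was read at 1682 and 2692 in WT and at 2462 and 2490 in KO, so the 2 WT libraries held the lowest and the highest value of all 10. In KO, the 3 estrus values of Myc lay below both diestrus values, by -0.09 ± 0.18 on the log2 scale (adjusted p = 0.760, limma). The KO to WT difference of Myc was 0.02 ± 0.17 at estrus (95% interval -0.34 to 0.38) and 0.22 ± 0.20 at diestrus.

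The calls among the G1 regulators are set here beside those over all genes. Between estrus and diestrus in KO, 1 of the 9 tested regulators passed (Ccnd1, higher), where 16.6% of all tested genes passed and 7.67% passed as higher. In the same comparison 7 of 9 had groups that did not overlap, against 51% of all tested genes. Between KO and WT at estrus, 0 of 9 passed, where 4.2% of all tested genes did, and 3 of 9 (Ccnd3, Cdk4 and Rb1) did not overlap, against 26%. At an unadjusted p under 0.05, 2 of the 9 (Ccnd1 and Rb1) differed at estrus, as did 3919 of the 15180 tested genes.

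Between KO and WT at diestrus, 0 of 9 passed, where 0.0395% of all genes did, and 4 of 9 (Ccnd1, Cdk6, Cdkn1c and Rb1) did not overlap, against 43.1%. Averaged over both stages, 0 of 9 passed, where 0.665% of all genes did. Between the stages in WT, 0 of 9 and 0% of all genes passed by limma, with 588 genes at an unadjusted p under 0.05, and 1 of 9 (Cdk6) did not overlap, against 17.7%. For the interaction, 0 of 9 and 0% of all genes passed by limma, with 2150 genes at an unadjusted p under 0.05. The median difference of the 9 regulators was 0.23 between KO and WT at estrus, with 8 of 9 above 0, and 0.41 between the stages in KO, with 7 of 9 above 0. The medians over all tested genes were -0.01 in both. At estrus the median of the regulators was 0.0705 without KO estrus replicate 1, 0.143 without WT estrus replicate 3 and 0.102 with the length and GC trend removed, where Cdkn1c, Cdkn2c and Myc were also below 0. Between the stages in KO it was 0.62 without KO estrus replicate 3 and 0.20 over the regulators with a mean of at least 50. The comparisons share libraries, since the KO estrus group enters both of them, so their signs are not independent.

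**Figure D3:**
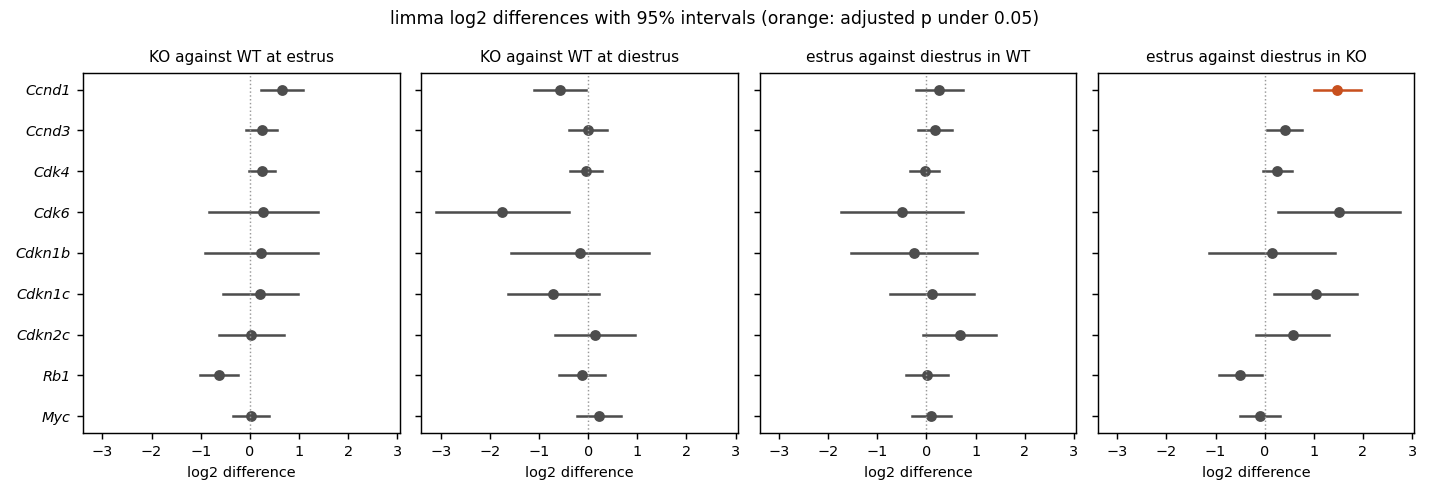
Differences of the 9 tested regulators on the log2 scale (points) with 95% intervals (lines), by limma, in 4 comparisons that share libraries; orange marks an adjusted p under 0.05. Ccnd1 at estrus against diestrus in KO (1.48) is the orange point, and the widest intervals belong to Cdk6 and Cdkn1b.

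The genes that act with the G1 regulators were followed in 4 further lists. Of 22 E2F targets of S phase, the genes that RB1 restrains, 1 was higher in KO than WT at estrus. This was Tk1, a thymidine kinase of DNA precursor synthesis, read at 166, 117 and 84 in KO and at 50, 56 and 37 in WT. Its difference was 1.31 ± 0.29 (adjusted p = 0.0365, limma), in a comparison where 1.26% of all tested genes were called higher, and 17 of the 22 lay above 0, with a median of 0.42. Tk1 passed at estrus in 9 of 23 alternatives.

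Between estrus and diestrus in KO, 5 of the 22 E2F targets were higher and 0 were lower, where 7.67% and 8.95% of all tested genes were. Their median was 0.59, and 0.29 over those with a mean of at least 50. The proliferation marker Mki67 was read at 57, 48 and 39 in KO at estrus and at 4 and 15 at diestrus, a difference of 2.44 ± 0.57 (adjusted p = 0.0178, limma). Rrm2, a subunit of ribonucleotide reductase, differed by 1.52 ± 0.45 (adjusted p = 0.0408, limma), and Tk1 by 1.15 ± 0.32 (adjusted p = 0.0340, limma). Tyms, thymidylate synthase, was also among those that passed. These counts are low beside those of the luminal markers. Without KO diestrus replicate 1, or without replicate 2, 0 of the 22 passed, and without KO estrus replicate 1, or without replicate 2, 1 passed.

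Of 23 other G1/S core genes, 19 were tested, 0 differed between KO and WT at estrus (median -0.02), and 2 were lower at estrus than at diestrus in KO, where 8.95% of all tested genes were. Both are kinases. Cdk2, the partner of cyclin E, was read at 326, 324 and 359 in KO at estrus and at 519 and 507 at diestrus, a difference of -0.61 ± 0.14 (adjusted p = 0.0175, limma). Cdk7, the kinase that activates other CDKs, was read at 405, 422 and 499 against 597 and 659, a difference of -0.51 ± 0.15 (adjusted p = 0.0407, limma). The median of the 19 was -0.17, and it was -0.32 without KO diestrus replicate 1 and above 0, at 0.0569, with the length and GC trend removed. Neither passed without KO diestrus replicate 1 or without replicate 2.

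Of 13 genes for the turnover of D cyclins, p27 and MYC, 0 passed between KO and WT at estrus (median -0.17), and 2 were lower at estrus than at diestrus in KO (median -0.08), where 8.95% of all tested genes were. The median at estrus was -0.0827 without KO estrus replicate 3 and -0.26 without WT estrus replicate 3. Cul1, the scaffold of the SCF ubiquitin ligases, was read at 995, 1656 and 1980 in KO at estrus and at 2449 and 2963 at diestrus, a difference of -0.86 ± 0.23 (adjusted p = 0.0300, limma). Ambra1, the substrate receptor that directs D cyclins to breakdown, was read at 365, 477 and 542 against 727 and 747, a difference of -0.69 ± 0.18 (adjusted p = 0.0234, limma). With the length and GC trend removed, Cul1 (-0.71, adjusted p = 0.0512) and Ambra1 (-0.57, adjusted p = 0.0555) did not pass. Both also missed the threshold without KO diestrus replicate 1 or without replicate 2.

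Of 12 partners and antagonists of MYC, 11 were tested and 0 passed in any of the 6 comparisons. Over all tested genes, the share that passed ran from 0% to 16.6% by comparison. The most abundant, the antagonist Mxd1, was read at 1327, 1373 and 1337 in WT and at 1235, 1533 and 1444 in KO at estrus. Its KO to WT difference at estrus was 0.06 ± 0.18, and that of Mycl, the second most abundant, was 0.13 ± 0.21.

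**Figure D4:**
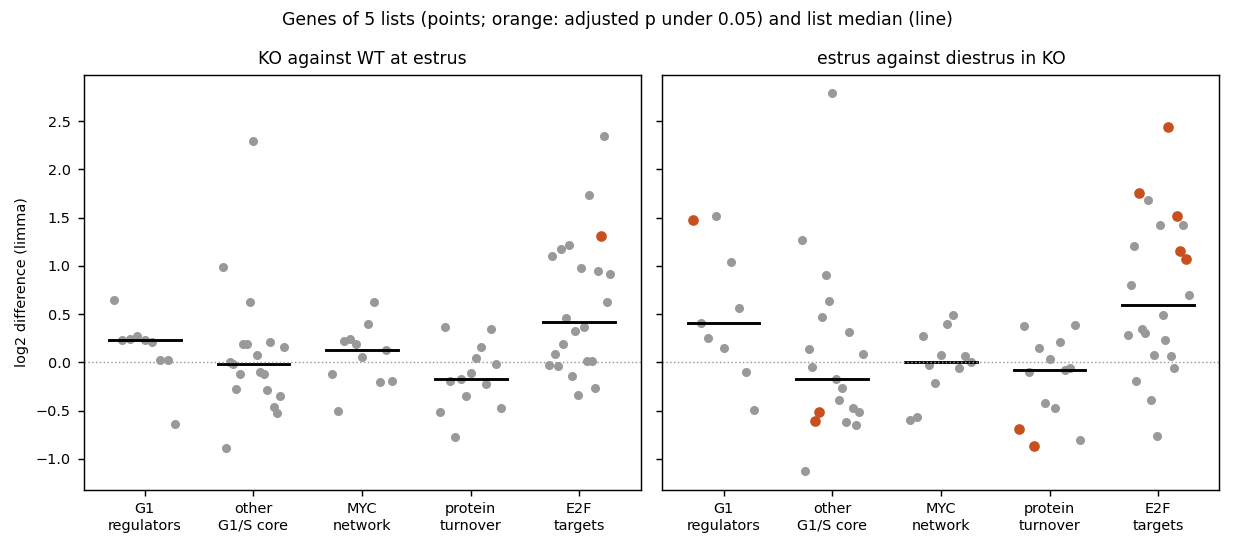
Differences on the log2 scale of the genes in 5 lists (points) with each list's median (line), between KO and WT at estrus and between estrus and diestrus in KO, which share the KO estrus libraries; orange marks an adjusted p under 0.05 by limma. In the second comparison, 5 E2F targets are orange above 0, and 2 G1/S core genes and 2 turnover genes are orange below 0.

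The genes whose pattern over the 10 libraries was closest to that of Ccnd1 were Gstm1, a glutathione transferase, Rpp21, a subunit of ribonuclease P, and Ebpl. Closeness was the root mean square difference of centred log2 values, at 0.169, 0.193 and 0.203 among 10386 candidates, where the SD of Ccnd1 itself was 0.599. Gstm1 was read at 1146, 879 and 843 in KO at estrus and at 313 and 256 in KO at diestrus, beside 1147, 898, 1010, 374 and 352 for Ccnd1. For Cdkn1c the closest were Arl2 (0.196), Ccdc124 (0.209) and Rex1bd (0.215), and for Myc they were Cdadc1 (0.111), Zfp689 (0.115) and Maip1 (0.117). With the length and GC trend removed, 1 of the 3 stayed among the closest for Ccnd1, 1 for Cdkn1c and 0 for Myc.

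Some markers of other cells moved with the stage in KO. Of 8 macrophage markers, 5 were tested and 2 were higher at estrus than at diestrus in KO, where 7.67% of all tested genes were: Cd74 (409, 436 and 215 against 60 and 71) and C1qb (44, 30 and 8 against 1 and 0). The summed macrophage markers ran from 579 to 818 in KO at estrus, 433 to 436 in KO at diestrus, 327 to 611 in WT at estrus and 567 to 635 in WT at diestrus. The defining marker Adgre1 was at 0 to 5 in every library, and Csf1r was between 187 and 205 in KO at estrus and at 236 and 234 in KO at diestrus. Of 7 luminal progenitor markers, Cd14 was higher at estrus than at diestrus in KO (1487, 1128 and 1223 against 793 and 851). Itga2, which encodes the sort antigen CD49b, was lower (174, 96 and 57 against 236 and 339). Most of this list lay on the lower side, with 5 of 7 below 0 and a median of -0.56. In the comparison of the stages in KO, 7.67% of all tested genes were called higher and 8.95% lower. Of the 10 hormone-sensing markers, Ly6a, which encodes Sca-1, was higher in that comparison (26930, 21549 and 27186 against 14585 and 10512). The summed basal markers (429 to 1009 against 334 to 686), fibroblast markers (107 to 3101 against 94 to 117), endothelial markers (32 to 49 against 23 to 81) and adipocyte markers (5 to 25 against 0 to 24) overlapped between the stages in KO. The fibroblast sum was mostly Dcn, at 64 to 3065 over all libraries. Col1a1, Col1a2, Col3a1, Pdgfra and Lum were each at 21 or less in every library, so the sum does not measure fibroblast content. The endothelial sum was mostly Pecam1 and the adipocyte sum mostly Fabp4. The summed lymphocyte markers ran from 139 to 188 in KO at estrus and from 58 to 130 in the other libraries, and Trbc2 was called higher in KO than WT at estrus. The part of these cells in the differences of Ccnd1 and of the E2F targets was not tested, and in bulk RNA a change in cell numbers and a change in RNA per cell cannot be told apart.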

How the data were processed

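RNA-seq libraries of sorted mouse mammary cells were used (3, 3, 2 and 2 per group). Per the submitters' processing notes, STAR, HTSeq, DESeq2 and mm10 were used; versions, annotation and strand setting are not given in the sources used here. The deposited values are a score: the authors' normalized counts, rounded to whole numbers and not divided by length, so no count model was used.

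Of 26312 genes, 26249 had a symbol in GENCODE M21 and 63 did not. Values were taken as log2(value + 1). The 15180 genes with a mean of at least 10 entered limma 3.58.1 (R 4.3.3), in 1 fit of the 4 group means whose prior variance follows the expression level (trend=TRUE). For each of 6 two-sided contrasts, Benjamini-Hochberg adjustment covered every tested gene, with 0.05 as the threshold, and groups of 2 borrowed the spread of the others. Differences of low genes are understated on this scale. Read depth is not known, so no counting intervals are given, and totals of 14108057 to 15307238 normalized counts stand for depth. The code was tested on simulated data.

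Levels per kb used the union of exons. The regulators, lists and tests were chosen with earlier results of these data known. Named were all 10 regulators, Rps6ka3, of each related list the called genes (up to 4 per comparison by size, otherwise the 2 of highest mean), and the 3 genes closest in pattern to Ccnd1, Cdkn1c and Myc (Ccnd2 was not tested) with a mean of at least 50 and a gene name that is not a predicted gene or clone. One gene that this rule names is not reported here. Gm44732, LTO1, Tyms and the markers were named for their overlap or their call, after their values were seen. The inhibitors outside the list were named for their levels, also after their values were seen. Alternatives were other pseudocounts, filters, scalings, spread models, a length and GC correction, a replicate block and leaving out libraries.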

Additional observations from a re-analysis of the deposited data

Results flagged for a closer look

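Ccnd1 was flagged by a rule, that all KO libraries lie on opposite sides of the WT mean at estrus and at diestrus. All 3 KO estrus libraries lay above that mean, and both KO diestrus libraries lay below it. The rule was not applied to all genes and is not a test. The KO to WT difference was 0.65 at estrus (adjusted p = 0.0717, limma) and -0.57 at diestrus (adjusted p = 0.789, limma). Neither passed, so a change of sign was not shown. The estrus difference exceeded the diestrus difference by 1.22 on the log2 scale. The interaction itself was tested, and its adjusted p was 0.237 by limma, with a range of 0.0922 to 0.661 over the alternatives.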

How the results depend on the processing

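Over 38 differences of single genes, 857 recalculations left 747 with the same direction and side of the threshold. A further 81 fell short of it, 6 newly passed it and 23 changed sign, and 31 of the differences never changed sign. Only differences that passed in the main fit could fall short, so the 747 do not show how well calls held. Between the stages in KO, Rrm2 and Cdk7 each passed in 11 of 23 alternatives, and Tk1 in 15 of 23. Cul1 and Ambra1 each passed in 16 of 23, Tyms in 17 of 23, Mki67 in 18 of 22 and Cdk2 in 20 of 23. Ccnd1 between the stages in KO passed in 21 of 23 alternatives (1.30 to 1.57). The count of regulators that passed in that comparison was 2 instead of 1 with quantile normalization (Ccnd3 added, 0.48, adjusted p = 0.0457, limma), with library weights (Cdk6 added, 1.78, adjusted p = 0.0215) and with the replicate block (Cdkn1c added, 1.18, adjusted p = 0.0391, limma). It was 0 without KO estrus replicates 1 and 3 together and 0 to 2 when single libraries were left out. For KO against WT at estrus it was 0 to 1 when single libraries were left out. The labels do not say whether the replicate numbers pair the samples. Deviations of same-numbered WT and KO estrus libraries correlated at 0.187, 0.0835 and 0.0309. Differently numbered libraries were not compared, so these values do not settle the question. The block changed no other call among the regulators.

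Reversals were limited to small differences. For KO against WT at estrus, leaving out single libraries gave -0.16 to 0.89 for Cdk6, -0.41 to 0.71 for Cdkn1b, -0.056 to 0.53 for Cdkn1c, -0.20 to 0.18 for Cdkn2c and -0.043 to 0.098 for Myc. With the length and GC trend removed, Cdkn1c was at -0.016, Cdkn2c at -0.13 and Myc at -0.088. Cdkn2c was at -0.037 with quantile normalization and -0.059 with library weights, and Cdkn1c at -0.043 without KO estrus replicates 1 and 3. Leaving out single libraries gave -0.30 to 0.62 for Cdkn1b between the stages in KO and -0.041 to 0.16 for Ccnd1 averaged over the stages. The latter was -0.0059 with library weights and -0.049 without KO estrus replicates 1 and 3. The cause was not tested.

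With the longest transcript as length, the Ccnd1 share of D cyclins was 30.2%, 36.1%, 28.5% and 21.2% (WT estrus, KO estrus, WT diestrus, KO diestrus). Leaving out single libraries gave 37.7% to 47.2%, 49.5% to 51.5%, 41.6% to 42.0% and 30.5% to 34.8%.

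Calls over all genes rested on few libraries: between the stages in KO, 2524 passed, and 151 or 39 without KO diestrus replicate 1 or 2. For KO against WT at estrus, 637 passed, and 0 to 996 in the alternatives. The E2F targets that passed between the stages in KO were 5, and 0 to 8 in the alternatives. Without the filter, Ccnd2 was tested and did not pass. Fits of the compared groups alone do not exist for the averaged difference and the interaction. The other medians of the lists ranged over the alternatives from -0.10 to 0.0775 (other G1/S core, estrus) and from -0.12 to -0.0186 (turnover, stages in KO). Low counts limit Ccnd2, Cdk6, Cdkn1c and Cdkn2c.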
